A study of Homo sapiens with 12 samples.

Results

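The cytosolic ribosomal protein genes encode the protein parts of the 40S (small) and 60S (large) subunits of the ribosome that translates nuclear mRNAs. They were taken by symbol, as RPLP0, RPLP1, RPLP2, RPSA and every RPL or RPS gene whose symbol ends in a number with an optional A or X. This gave 77 of the 43876 genes in the expression table, 31 of the small and 46 of the large subunit. A gene was tested when its FPKM (fragments normalised for exon length and library total) was at least 1 in at least 3 of the 12 libraries, and 74 of the 77 genes passed, 28 of the small and 46 of the large subunit, among 18574 genes tested. RPS18 and RPS25 were among the 3 genes that did not pass.

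The libraries came from MV4-11, a single human cell line of acute myeloid leukemia with an internal tandem duplication in the receptor kinase FLT3; the labels give its genotype as wild-type. Cells were kept for 24 h with the solvent DMSO, with 20 nM mitoxantrone, with 25 nM of the FLT3 inhibitor gilteritinib, or with a combination of 20 nM mitoxantrone and 20 nM gilteritinib, so the gilteritinib dose of the combination was below that of the single drug. The labels name the first drug mitoxantrone, a topoisomerase II poison, and the study's text describes its liposomal form for the RNA-seq. Each of the 4 groups held 3 libraries, numbered 1 to 3 in the labels, which do not say whether they came from separate cultures, so the p-values below measure only the spread between these libraries. In these bulk libraries fewer cells of a type and less RNA per cell cannot be told apart, and FPKM gives a gene's level relative to the rest of its library.

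Recovered depth lay between 31725000 fragments in Mitoxantrone replicate 2 and 41325000 in Gilteritinib replicate 1. The 9 myeloid markers examined all passed the filter, with FLT3 at 132 to 171 FPKM and the myeloid transcription factor SPI1 at 59.8 to 108 FPKM, while the defining markers of T cells, stromal and epithelial cells, CD3E, COL1A1 and EPCAM, did not exceed 0.0894 FPKM. Of the 8 markers of other cells 2 passed the filter, HBB at up to 2.85 FPKM among them. The replicate 1 library of every group stood apart from replicates 2 and 3. In deviations from the group means over all tested genes, all 18 pairs of same-numbered libraries correlated, at r of 0.165 to 0.657. With replicate 1 apart in every group, replicates 2 and 3 deviate to the other side together by construction. Pairs of different numbers were not examined, so these r cannot show whether the numbers 2 and 3 pair the libraries. What the number stands for is not given in the sources used here.

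Every ribosome holds 1 copy of nearly every ribosomal protein, with the stalk proteins as an exception, and the genes are transcribed at high levels in growing cells. Their mRNAs are known as TOP mRNAs, because they typically begin with a C followed by an unbroken stretch of C and T bases (a 5' terminal oligopyrimidine tract), which lets mTORC1 and its effector LARP1 control their translation largely without a change in mRNA level. Free RPL5 and RPL11, joined to 5S rRNA, and some other ribosomal proteins bind the ubiquitin ligase MDM2, and mutations in many of the genes underlie Diamond-Blackfan anaemia. FLT3 with an internal tandem duplication signals to mTORC1 and MYC, and mitoxantrone damages DNA, which is why genes of these responses were placed beside the ribosomal protein genes.

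The start sites show the shared feature of the family that the choice by symbol did not use. RefSeq windows from 250 bases before to 50 bases after the annotated start (build GRCh38.p14) were at hand for 62 of the 77 genes, in 77 windows, and not for the other 15, among them RPS15A, RPL23, RPL30, RPL7, RPL8, RPL37, RPS20, RPS2, RPL23A and RPL5. The 50 bases around the start are printed for genes that the results below turn on, with 30 bases before the start and 20 from the start onward, 5′ to 3′ on the transcribed strand. Where RefSeq lists several starts, the one with the longest C and T stretch from the start is shown, and the capitals mark the unbroken C and T stretch that contains the annotated start.
RPLP1, chr15:69452788-69452837, plus strand: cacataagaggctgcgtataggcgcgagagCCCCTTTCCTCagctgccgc
RPS6, chr9:19380217-19380266, minus strand: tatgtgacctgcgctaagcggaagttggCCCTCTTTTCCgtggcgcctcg
RPL13, chr16:89560652-89560701, plus strand: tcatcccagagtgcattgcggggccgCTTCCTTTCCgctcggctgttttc
RPL19, chr17:39200293-39200342, plus strand: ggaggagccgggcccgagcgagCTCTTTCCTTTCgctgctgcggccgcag
RPL11, chr1:23691776-23691825, plus strand: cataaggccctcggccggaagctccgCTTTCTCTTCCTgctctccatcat
RPL41, chr12:56116603-56116652, plus strand: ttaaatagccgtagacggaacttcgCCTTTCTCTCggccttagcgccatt
RPL38, chr17:74203648-74203697, plus strand: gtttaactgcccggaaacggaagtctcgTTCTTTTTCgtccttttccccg
RPS26, chr12:56041888-56041937, plus strand: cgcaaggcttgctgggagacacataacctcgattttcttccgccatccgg
RPS23, chr5:82278335-82278384, minus strand: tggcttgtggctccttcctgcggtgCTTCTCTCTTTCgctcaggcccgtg
RPS7, chr2:3575230-3575279, plus strand: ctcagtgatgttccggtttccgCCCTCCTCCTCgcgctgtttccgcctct
In RPLP1, a stalk protein, the stretch opens at the start itself and runs for 11 bases, and in RPS6, the target of the S6 kinases, it runs for 9 bases from the start. RPS26, a protein of the mRNA exit site, has a G at the annotated start and no stretch there. In 46 of the 77 windows (59.7%) the start was a C and the stretch from it at least 5 bases long, beside 4.07% of the 35116 windows of all genes. The median stretch from the start was 6 bases in the family and 0 over all windows, and the longest, of 19 bases, belonged to RPL39. The letters CTTTCC lay within the 50 bases shown, on the transcribed strand, in 29.9% of the family's windows and 2.58% of all windows, and on the opposite strand in 1.3% and 2.08%; they can lie inside the C and T stretch. The ETS-type letters CCGGAAG lay anywhere in the 300-base windows, on the transcribed strand, in 24.7% and 5.75%, and on the opposite strand in 9.09% and 5.42%. TATAA between positions -40 and -16 was found in 9.09% of the family's windows and 3.91% of all windows (opposite strand, 5.19% and 1.73%). These matches describe letters in the windows and were not tied to any difference between libraries.

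Ribosomal protein mRNAs were among the most abundant in the cells. The mean over the 12 libraries was at least 100 FPKM for 62 of the 77 genes and at least 1000 FPKM for 4, and 36 of them were among the 100 genes with the highest mean, with 49 among the highest 200. RPL13A (1295 FPKM), RPS2 (1152), RPL29 (1007) and RPL3 (997), the last a protein at the peptidyl transferase centre, were among the 5 genes with the highest means. RPL13A lay between 1202 and 1393 FPKM over the libraries and RPS2 between 1043 and 1266, so these overlapped, while RPL3, between 913 and 1066 FPKM, lay wholly below RPL13A. The median mean level was 296 FPKM, and the 90th percentile was 30.8 times the 10th.

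The order depends on the gene models. The deposited FPKM values divide fragments by the union of all annotated exons, which spans 767 to 9845 nt for these genes against coding sequences of 75 to 1281 nt, and for RPS29, with the largest gap, the exon union is 58.6 times the coding sequence. Divided by coding length instead, the median was 2351 on the same per-kilobase scale, with RPL41 highest at 12420 (rank 10 by FPKM) and RPL37A second at 6122 (rank 43 by FPKM). The fragments divided are still those of all exons, so genes with much untranslated exon sequence rise on this scale. The exon union was 14.5 times the coding sequence for RPL41 and 24.8 times for RPL37A. Their ranks therefore do not show which mRNA was the most abundant. RPL41, a peptide of the large subunit that is among the smallest proteins known, has the 75 nt coding sequence. The spread between genes stayed at 30.7 times from the 10th to the 90th percentile on this scale.

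**Figure D1:**
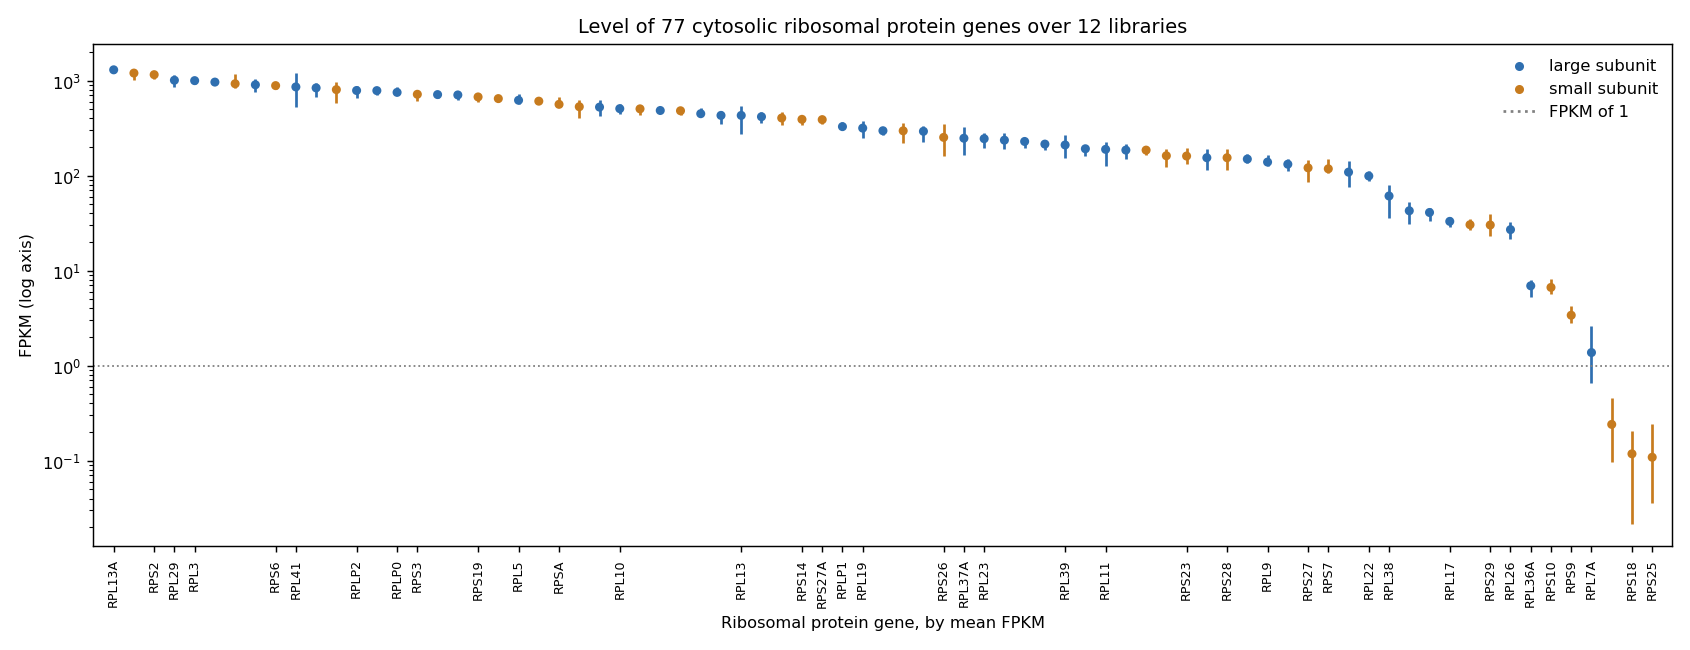
Mean FPKM over the 12 libraries of each of the 77 genes (points, log axis) with lines from the lowest to the highest library, genes ordered by mean and coloured by subunit, with names at some of them, and a dotted line at 1 FPKM. Of the 77 genes 62 have means of at least 100 FPKM, and 3, RPS18 and RPS25 among them, lie wholly below 1 FPKM.

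Some of the low levels stood beside high levels of a pseudogene. Among the 5 lowest means were those of RPS25 (0.0361 to 0.241 FPKM), RPS18 (0.0218 to 0.203), RPL7A (0.658 to 2.6) and RPS9 (2.83 to 4.29). RPS25 stood for 2 to 12 recovered fragments per library. For RPS18 the recovery gave 1.7 to 15.4, values that were not whole. The exon length used may therefore not be the one behind its FPKM, and its fragment number is known only as small. The processed pseudogene RPS18P5, named here after its values were seen, was listed at a mean of 42.2 FPKM where RPS18 was at 0.118, and RPL7AP6 at 143 FPKM where RPL7A was at 1.38. RPS28P7 was at 1476 FPKM beside 154 for RPS28, and RPL17P7 at 46.3 beside 33 for RPL17. A 50-base stretch of coding sequence was shared with a transcript of another gene for 76 of the 77 genes (median 51.9% of such stretches), and 10 genes had a mean below the sum of the pseudogenes named for them. These, among them RPS7, RPS10, RPS15A, RPS18, RPS25, RPS28, RPL7A, RPL17 and RPL36A, are therefore uncertain, as counting could split their fragments, and RPS10, RPL17 and RPL10 also share 39.4%, 35.3% and 55.5% of their exon bases with overlapping genes. For RPL21, RPL39, RPL41, RPS26 and RPS27, named below, 100% of the 50-base stretches were shared. Each lay above the sum of its pseudogenes, but the same split of fragments could affect their values.

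As a share of all summed FPKM, the 77 genes held 8.24% ± 0.674 in DMSO, 8.33% ± 0.417 in Mitoxantrone, 8.21% ± 0.338 in Gilteritinib and 8.27% ± 0.187 in the combination (SD, n = 3 each). On this denominator the group means lay closer to each other than the SD of any group. That did not hold over protein-coding genes, with means from 10.55% (DMSO) to 10.9% (Gilteritinib) and a Gilteritinib SD of 0.276. Nor did it hold in recovered fragments, with means from 9.757% to 10.14% and a Gilteritinib SD of 0.302. By library, DMSO was at 7.465%, 8.72% and 8.52% in replicates 1 to 3, Mitoxantrone at 7.88%, 8.4% and 8.71%, Gilteritinib at 7.835%, 8.3% and 8.49%, and the combination at 8.08%, 8.285% and 8.45%. The lowest share in each group was that of replicate 1, and the replicate 1 libraries (7.465% to 8.08%) did not overlap the others (8.285% to 8.72%). RN7SL1, the RNA of the signal recognition particle, took 5.98% to 13.4% of the summed FPKM and so enters the denominator.

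None of the 6 drug comparisons moved a ribosomal protein gene past the test (limma on log2(FPKM + 1), Benjamini-Hochberg adjusted p under 0.05 over all genes tested). Among all 18574 genes the percent called was 0 in 5 comparisons and 0.00538 for Combination minus DMSO, where 1 gene outside the family was called. At an unadjusted p under 0.05, 1 of the 74 genes was lower in Mitoxantrone minus DMSO (2.94% of all genes were lower, and 7.9% passed in either direction), 0 passed in Gilteritinib minus DMSO (1.86%), 1 was lower in Combination minus DMSO (0.84% of all genes lower, 1.67% in either direction), and 0 passed in Combination minus Gilteritinib (1.63%), Combination minus Mitoxantrone (5.53%) and Gilteritinib minus Mitoxantrone (9.52%). The comparisons share their DMSO or drug libraries and are not independent.

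The fitted intervals limit how large a difference could have been missed. They come from the fit without a replicate term, so the split of replicate 1 enters their width and the unadjusted p-values above. The 95% intervals had a median width of 0.26 on the log2 scale to each side, on log2(FPKM + 1), which understates the change of low genes. In Combination minus DMSO all 74 intervals lay within 1 log2 unit of 0, and in each of the other 5 comparisons 73 did, with RPL41 outside in Gilteritinib minus Mitoxantrone and RPL13 in the other 4. Between 57 and 63 of the 74 lay within 0.5. The median difference of the family was 0.03 in Mitoxantrone minus DMSO (0.03 over all genes), 0.07 in Gilteritinib minus DMSO (-0.03) and 0.02 in Combination minus DMSO (-0.01). Of the 74 genes, 49, 62 and 40 lay above 0. Against Gilteritinib the median of the combination was -0.05 (0.02 over all genes, 13 genes above 0) and turned to 0.03 under quantile normalization; the median of Gilteritinib minus Mitoxantrone was 0.04 (-0.06, 54 above 0) and turned to -0.05. Under median-ratio scaling the median of Mitoxantrone minus DMSO turned to -0.02, and that of Combination minus Mitoxantrone, -0.02 (-0.04, 26 above 0), turned to 0.04.

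**Figure D2:**
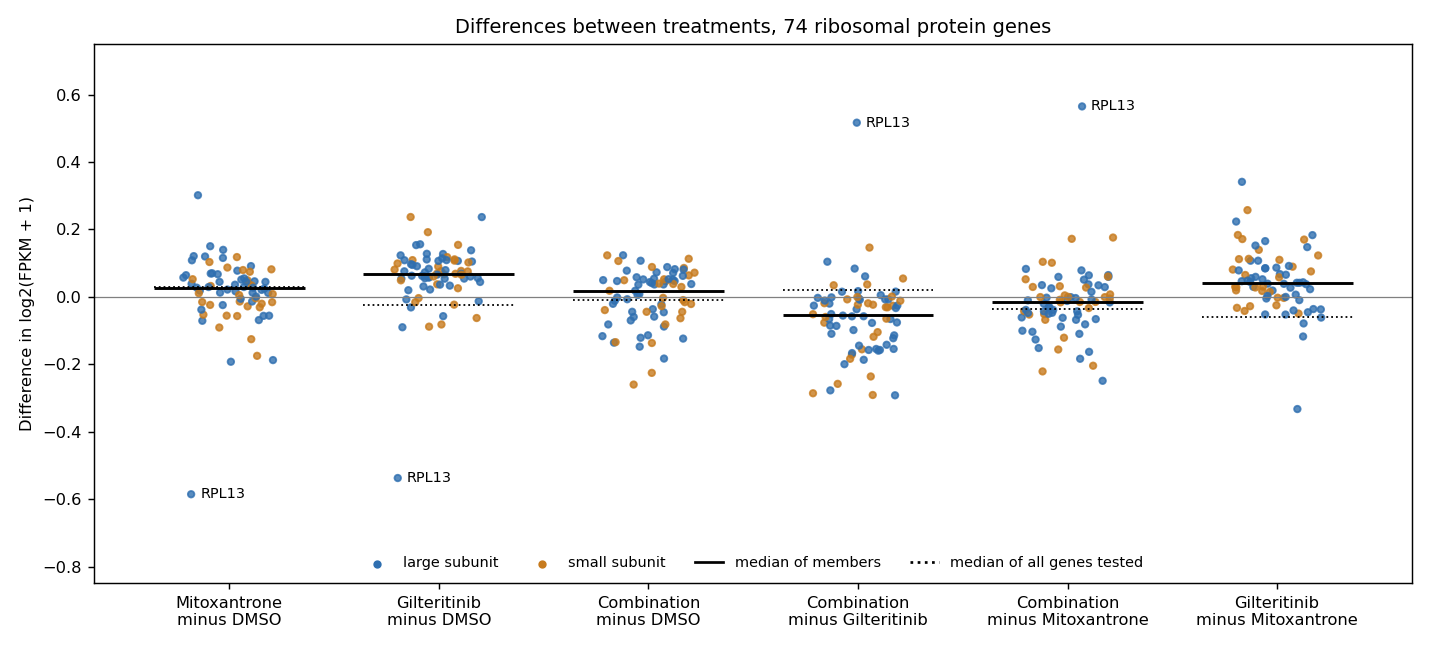
Difference of each of the 74 tested genes in the 6 drug comparisons, in log2(FPKM + 1) units, 1 point a gene coloured by subunit, with a solid line at their median and a dotted line at the median of all genes tested. RPL13 lies apart at -0.59 and -0.54 for the single drugs against DMSO and at 0.52 and 0.56 for the combination against each of them.

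By structural role the differences were small in both directions. The stalk, which recruits elongation factors, is made of RPLP0, RPLP1 and RPLP2 on RPL12. RPLP0 was at 731, 747 and 698 FPKM in DMSO, at 719, 729 and 773 in Mitoxantrone, at 852, 733 and 744 in Gilteritinib and at 847, 724 and 702 in the combination. The groups overlapped, and RPLP1, whose differences from DMSO were 0.08, 0.10 and 0.05 in the 3 treated groups, was not called (in Gilteritinib 0.10, SE 0.09, 95% interval -0.10 to 0.31, adjusted p = 1 from limma). RPS3, RPS14 and RPS15, which line the mRNA path or decoding site, and RPSA, a small-subunit protein also known as the laminin receptor, were likewise not called. RPS15 was at 506, 568 and 562 FPKM in DMSO and at 534, 519 and 404 in Mitoxantrone, a difference of -0.18 (adjusted p = 0.832 from limma) in which Mitoxantrone replicate 3 was the lowest of the 12 libraries. RPL10, a late-joining protein near the peptidyl transferase centre, was at 447, 515 and 500 FPKM in DMSO and at 496, 527 and 566 in Mitoxantrone, a difference of 0.12 (adjusted p = 0.812 from limma, and 0.362 in the fit blocked by replicate). The groups overlapped, while within each of the 3 replicate numbers the Mitoxantrone library was the higher. The numbers are not shown to pair the libraries, and how many other genes had 1 direction in all of them was not counted.

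None of the genes whose proteins bind MDM2 was called. Of the 8 examined, RPL5, RPL11, RPL23, RPL26, RPS3, RPS7, RPS14 and RPS27A, 5 lay above 0 in Mitoxantrone (median 0.01), 7 in Gilteritinib (0.08) and 4 in the combination (0.01), and none passed the unadjusted threshold. RPL5 was at 649, 601 and 571 FPKM in DMSO and at 705, 586 and 601 in the combination, and RPL11 at 185, 195 and 205 in DMSO and 127, 225 and 190.0 in the combination. These libraries overlapped, with replicate 1 the highest of its group for RPL5 and the lowest for RPL11. Beside them, CDKN1A, an inhibitor of the cell cycle, was at 1.2 in Mitoxantrone minus DMSO (adjusted p = 0.582 from limma) and MDM2 at 0.75 in Combination minus DMSO (adjusted p = 1), and neither was called.

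The 17 tested genes linked to Diamond-Blackfan anaemia included RPS10, the 1 gene under an unadjusted p of 0.05 in Combination minus DMSO. RPS10 was at 7.36, 7.04 and 7.135 FPKM in DMSO and at 5.68, 5.83 and 5.97 in the combination, so the groups did not overlap. The log2 difference was -0.26 (SE 0.11, 95% interval -0.51 to -0.01, unadjusted p = 0.0436, adjusted p = 1 from limma), and the gene is among those whose fragments pseudogenes and an overlapping gene can share. Mitoxantrone libraries were at 7, 7.48 and 6.17 FPKM and Gilteritinib at 6.105, 8.23 and 5.93. RPS19, the gene most often mutated in that anaemia, was at 591, 691 and 629.5 FPKM in DMSO and 742, 677 and 648 in the combination, with overlap.

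Few genes separated the 3 libraries of 1 group from the 3 of another. Mitoxantrone lay wholly above DMSO for RPL36A and wholly below for RPS24, 1.35% of the 74 genes each beside 7.68% and 5.9% of all genes. Gilteritinib lay wholly above DMSO for RPL21, RPLP1 and RPS27A, 4.05% beside 2.18% of all genes. The combination lay above DMSO for RPS4X and below for RPS10 (2.57% and 3.16% of all genes), below Mitoxantrone for RPS10 (6.11%), and Gilteritinib lay above Mitoxantrone for RPL21 (5.25%). In the remaining directions 0 of the 74 genes separated, beside 4.4% of all genes for Gilteritinib below DMSO, 3.87% and 2.33% for the combination above and below Gilteritinib, 3.22% for the combination above Mitoxantrone and 9.12% for Gilteritinib below Mitoxantrone. RPS24, which can be mutated in Diamond-Blackfan anaemia, and RPS4X are named for this after their values were seen. RPS27A, made as a fusion with ubiquitin, had DMSO libraries at 371 to 392 FPKM and Gilteritinib libraries at 392 to 416, a difference of 0.07 (95% interval -0.10 to 0.24).

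The other genes with the smallest p in a comparison gave no call. In Combination minus DMSO, RPS27 was at 131, 115 and 123 FPKM in DMSO and 86.6, 139 and 96 in the combination (-0.23, 95% interval -0.60 to 0.15, adjusted p = 1 from limma), and RPL18 was at 0.12. The groups overlapped, and Combination replicate 2 held the highest RPS27 value of its group. RPL21 was at 705, 700.0 and 683 FPKM in DMSO, 705, 642 and 708 in Mitoxantrone, 773, 730 and 772 in Gilteritinib and 622.5, 762.5 and 657.5 in the combination. Gilteritinib thus lay above DMSO and above Mitoxantrone in every library, by 0.12 (95% interval -0.08 to 0.33, adjusted p = 1) and 0.15 (-0.06 to 0.35, adjusted p = 0.68 from limma). RPL31 was at 0.13 in Gilteritinib minus DMSO, RPS29 at 0.26 and RPL35 at 0.18 in Gilteritinib minus Mitoxantrone, RPS21 at -0.29 and RPL21 at -0.16 in Combination minus Gilteritinib, and RPS10 at -0.20 and RPL36A at -0.18 in Combination minus Mitoxantrone, all with adjusted p of at least 0.68 from limma.

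RPL13, a protein of the large subunit, had the smallest p of the family in Mitoxantrone and in Gilteritinib against DMSO and in the combination against either drug, and 4 libraries set it apart. It was at 442.9, 545.4 and 533.8 FPKM in DMSO replicates 1 to 3, at 505.5, 270.8 and 277.8 in Mitoxantrone, at 494.6, 278.2 and 305.7 in Gilteritinib and at 533.8, 444.6 and 520.4 in the combination. Replicates 2 and 3 of both single drugs were thus low, while replicate 1 of both, all 3 combination libraries and all 3 DMSO libraries lay at 442.9 FPKM or above. The log2 difference from DMSO was -0.59 in Mitoxantrone (SE 0.26, 95% interval -1.15 to -0.02, unadjusted p = 0.0444, adjusted p = 0.618 from limma) and -0.54 in Gilteritinib (95% interval -1.11 to 0.03, adjusted p = 1), and the combination was 0.56 above Mitoxantrone (adjusted p = 0.891) and 0.52 above Gilteritinib (95% interval -0.05 to 1.08, adjusted p = 1). A fit of replicates 2 and 3 only holds 2 libraries per group and was run with the split of replicate 1 known. It drops the single-drug libraries at 505.5 and 494.6 FPKM, which lay within the range of DMSO, so its calls are no independent test. In that fit RPL13 became the 1 gene of the family called, at -0.97 in Mitoxantrone minus DMSO (adjusted p = 0.00284), -0.89 in Gilteritinib minus DMSO (adjusted p = 0.0187) and 0.81 in Combination minus Mitoxantrone (adjusted p = 0.0056), and Combination minus Gilteritinib was 0.72 (adjusted p = 0.0862), all from limma. That is 1.35% of the 74 genes in each of the 3 comparisons, beside 6.41%, 0.614% and 6.13% of all genes called in the same fits. In Combination minus DMSO, Combination minus Gilteritinib and Gilteritinib minus Mitoxantrone, where 0 of the 74 were called, it was 0.0485%, 0.0754% and 6.63% of all genes. In the fit blocked by replicate, limma gave RPL13 an adjusted p of 0.253 in Mitoxantrone minus DMSO and of 0.366 in Combination minus Mitoxantrone. The unadjusted p there was 0.0259 and 0.0303. In Gilteritinib minus DMSO and Combination minus Gilteritinib the unadjusted p of that fit was 0.0371 and 0.0433, with adjusted p of 0.995 and 0.991.

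The pattern was not that of the other ribosomal protein genes. Over the 12 libraries the nearest member was RPS2, with Pearson's r of 0.683, and the median r of RPL13 with the other members was -0.44. Its processed pseudogene RPL13P12, chosen after its values were seen like the genes that follow, was at 5.15, 4.45, 4.49 and 5.48 FPKM in replicates 2 and 3 of Mitoxantrone and of Gilteritinib, and at 45.3 to 54.4 FPKM in the other 8, with r of 0.978, and the 2 share sequence, so fragments of one can be counted for the other. PRELID1 (r = 0.986), the zinc transporter gene SLC39A3 (0.985) and SCAND1 (0.981) followed it most closely. SCAND1 was at 3.43 to 6.29 FPKM in the same 4 libraries and at 17.3 to 21.65 in the others. In all, 75 other protein-coding genes had r above 0.9 with RPL13, and their median coding GC content was 66.4%, beside 51.6% over protein-coding genes and 62.2% for RPL13 itself. These correlations are descriptions over 12 libraries that share depth and base composition. With the trend of each library over coding GC content removed among protein-coding genes, RPL13 was at -0.63 in Mitoxantrone and -0.49 in Gilteritinib against DMSO and at 0.61 and 0.47 in the combination against Mitoxantrone and Gilteritinib, beside -0.59, -0.54, 0.56 and 0.52 without that correction. The corrected differences had adjusted p of 0.353, 1, 0.639 and 1 from limma, and of 0.0829, 0.768, 0.153 and 0.81 with the replicate block as well.

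Genes related to the family were not called in a drug comparison either. Of the 9 tested ribosomal genes that the symbols leave out, RPL39L, a testis-enriched paralogue of RPL39, was at -0.31 in Mitoxantrone minus DMSO (adjusted p = 0.527 from limma), and RPL36AL at -0.21 in Combination minus DMSO (adjusted p = 1). FAU, RPL22L1, RPL26L1, RPL7L1, RPS27L and RSL24D1 likewise had no call, and RPL3L and RPL10L did not pass the filter. Among 22 other TOP mRNA genes, VIM (vimentin) was at 0.51 in Mitoxantrone (adjusted p = 0.566) and 0.36 in the combination, PFDN5 at 0.21 in Mitoxantrone (adjusted p = 0.658) and NPM1 at -0.08 in the combination. Of 17 genes of translation control by mTORC1 and MYC, 8 lay above 0 in Mitoxantrone and 8 in the combination, with EIF4E, the cap-binding protein, at -0.13 and its repressor EIF4EBP1 at -0.35 in Mitoxantrone (adjusted p = 0.768 and 0.82), and PDCD4, an inhibitor of the helicase EIF4A1, at 0.08 and EIF4A1 at -0.12 in the combination. MYC was at 0.09 in Gilteritinib minus DMSO (adjusted p = 1).

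The mitochondrial ribosomal protein genes, whose products form the separate ribosome of mitochondria, were not called either. In Mitoxantrone minus DMSO 63 of the 72 tested were below 0, with a median of -0.10 beside 0.03 over all genes. Of the 72, 8 passed the unadjusted threshold, all lower, beside 2.94% of all genes lower. MRPL37 was at -0.38 and MRPS34 at -0.35 (adjusted p = 0.507 and 0.527 from limma). In the combination 50 of 72 were below 0, with a median of -0.03 beside -0.01 over all genes, MRPS14 at -0.15 and MRPL52 at -0.12. Of the 388 tested pseudogenes of the cytosolic family, 269 lay above 0 in Mitoxantrone minus DMSO, with a median of 0.09 beside 0.03 over all genes, and 0 were called. RPS15AP1 was at 0.55 (adjusted p = 0.397) and RPL29P14 at 0.42 (adjusted p = 0.507) there, and RPL21P119 and RPL36AP44 at -0.59 each in Combination minus DMSO (adjusted p = 1).

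The replicate 1 libraries differed from replicates 2 and 3 in 40 of the 74 ribosomal protein genes. This split was known from earlier results of these data, so the fit describes it and is no independent test. With the group means held, 35 of the 74 genes were lower in replicate 1 and 5 were higher (limma, adjusted p under 0.05), beside 12.7% of all genes lower and 26.9% higher. Lower calls made up 47.3% of the family and higher calls 6.76%. At a mean of at least 100 FPKM, 50% of 62 members were lower and 6.45% higher, beside 45.3% and 12.8% of the 351 other protein-coding genes of that level, so the share of lower calls was close to that of genes of like level. The median of the family was -0.14 and that of all genes 0.09. Under quantile normalization, which shifts the median of all genes by -0.10, the family's median relative to it was -0.10 with 24 lower and 10 higher, and under median-ratio scaling it was -0.26 with 48 lower and 1 higher.

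The genes lower in replicate 1 were often short. An exception is RPL19, with a coding sequence of 588 nt beside a family median of 456 nt. RPL19, at the tunnel exit, was at 249, 257.5, 258.8 and 249.1 FPKM in the replicate 1 libraries of DMSO, Mitoxantrone, Gilteritinib and the combination, and at 323 to 373 FPKM in the other 8 libraries. The difference was -0.45 (SE 0.04, adjusted p = 7.68e-05 from limma), and the libraries did not overlap. RPS26 was at 161 to 202 FPKM in replicate 1 and at 238 to 347 in the others (-0.61, adjusted p = 0.000883). RPL41 was at 710, 544, 721 and 521 FPKM in the same order of replicate 1 libraries and at 771 to 1193 in the others, a difference of -0.64 (SE 0.12, adjusted p = 0.00303) that was the largest of the family in size. RPL38 (-0.59), RPL37A (-0.56) and RPL39 (-0.48), also small basic proteins of the large subunit and named after their values were seen, had adjusted p of 0.00255, 0.00143 and 0.00298 from limma.

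**Figure D3:**
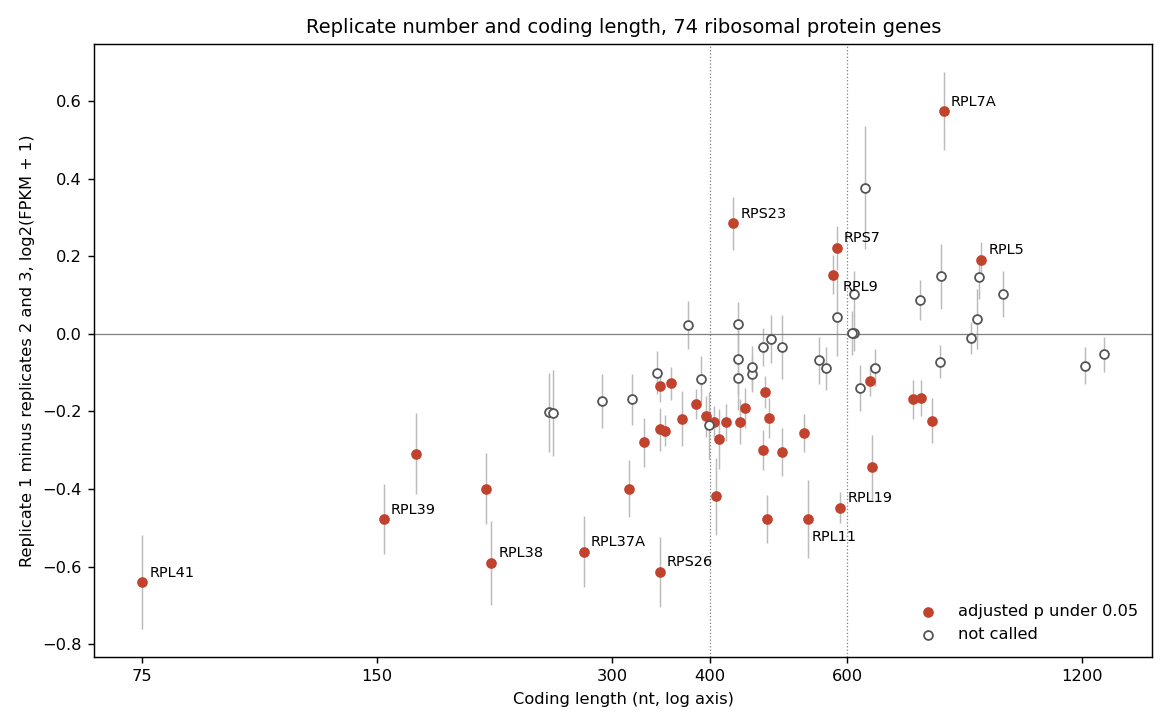
Difference of replicate 1 from replicates 2 and 3 for the 74 genes, in log2(FPKM + 1) units with lines of 1 SE to each side, against coding length in nt on a log axis, with called genes filled and dotted lines at 400 and 600 nt. RPL41, the shortest gene, lies lowest at -0.64, and the 5 genes called higher, RPL7A, RPS23, RPS7, RPL5 and RPL9, all have at least 400 nt.

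By coding length, 16 of the 24 genes under 400 nt were lower in replicate 1 and 0 higher, 14 of the 28 genes from 400 to under 600 nt were lower and 3 higher, and 5 of the 22 genes of 600 nt or more were lower and 2 higher. At a mean of at least 100 FPKM, 72.2%, 58.3% and 20% of the members in these classes were lower, against 53.7%, 43.5% and 43.3% of the other protein-coding genes. Over the 74 genes the difference correlated with log2 coding length at r of 0.595, and over those 351 other genes at r of 0.02. With coding GC content it was -0.04 in the family. Such length trends were not particular to the replicate split. In the family r was 0.57 in Combination minus Gilteritinib, -0.48 in Gilteritinib minus Mitoxantrone and 0.43 in Combination minus DMSO, beside 0.38, -0.38 and 0.14 over the 351 other genes. In Gilteritinib minus DMSO, Combination minus Mitoxantrone and Mitoxantrone minus DMSO it was -0.32, 0.21 and 0.13 in the family. Genes of 1 library share depth and preparation, so these r are descriptions. In single groups the replicate 1 difference correlated with length at 0.30 in DMSO, 0.55 in Mitoxantrone, 0.48 in Gilteritinib and 0.66 in the combination. The family's median of that difference was -0.13, -0.14, -0.14 and -0.17. Of the 40 genes called, 38 had the same sign in all 4 groups, with RPL28 and RPL9 as the exceptions. Whether the preparation, the culture or the cells' state set replicate 1 apart was not tested, and these cannot be told apart here.

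The genes higher in replicate 1 were RPL7A, RPS23, RPS7, RPL5 and RPL9. RPS23, a protein of the decoding site, was at 179, 179, 176 and 194 FPKM in replicate 1 of DMSO, Mitoxantrone, Gilteritinib and the combination and at 133 to 186 in the others (0.28, adjusted p = 0.00871 from limma), where Combination replicate 3 held the 186. RPL5 was at 632 to 719 FPKM in replicate 1 and at 571 to 612 in the others without overlap (0.19, adjusted p = 0.00955), while RPL11, its partner in the 5S particle, was at 127 to 185 and at 190.0 to 225 (-0.48, adjusted p = 0.00492). The proteins are neighbours in the ribosome, and these mRNAs differed from replicates 2 and 3 in opposite directions. RPL7A was at 1.62 to 2.6 FPKM in replicate 1 and 0.658 to 1.35 in the others (0.57, adjusted p = 0.00208), and its pseudogene RPL7AP6, at 105 to 127 and 132 to 173 FPKM, was lower (-0.36, adjusted p = 0.00542). RPS7 (0.22) and RPL9 (0.15) had adjusted p of 0.0125 and 0.0379 from limma.

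All 4 replicate 1 libraries lay below the other 8 for 25 of the 74 genes (33.8%, beside 6.39% of all genes) and above them for RPL5 and RPL7A (2.7%, beside 13.2%). Leaving out each library in turn gave 30 to 39 calls in the family, and 26 of the 40 genes were called in all 12 of these fits, RPL19, RPL41, RPS26, RPL5, RPL7A and RPS23 among them. Of the 40 genes 19 were called in every one of the 21 alternatives, and RPL7A in the 20 that included it, its mean lying under the filter of 5 FPKM in the remaining one.

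By role, 2 of the 4 stalk genes were lower, with RPLP2 at 656 to 755 FPKM in replicate 1 and 762 to 876 in the others (-0.25, adjusted p = 0.00724 from limma), while RPLP0 was at 0.10 and RPLP1 at -0.10 and neither was called. Of the 8 MDM2-binding genes 3 were lower (RPL11, RPL23 and RPS3) and 2 higher (RPL5 and RPS7), of the 8 genes of the mRNA path 3 were lower and 1 higher, and of the 6 genes each of the peptidyl transferase centre and of the exit ring 3 were lower. The lower calls were thus 37.5% to 50% of each role, beside 47.3% of the family, 12.7% of all genes and 45.3% of the other protein-coding genes with a mean of at least 100 FPKM, and no role is read as standing apart. RPS6 was at 811 to 822 FPKM in replicate 1 and 867 to 958 in the others (-0.17, adjusted p = 0.0189), and RPL22, an RNA-binding protein that the ribosome can do without, at 88 to 95.65 and 97.6 to 111 (-0.18, adjusted p = 0.00553). RPL10 (-0.12) was also lower, and RPSA (0.15, adjusted p = 0.0623), RPS14, RPS19, RPS27, RPS27A and RPL26 were not called. Of the most abundant genes, RPL29 was lower (-0.22, adjusted p = 0.00941), and RPL13A, RPS2 and RPL3 were not called.

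**Figure D4:**
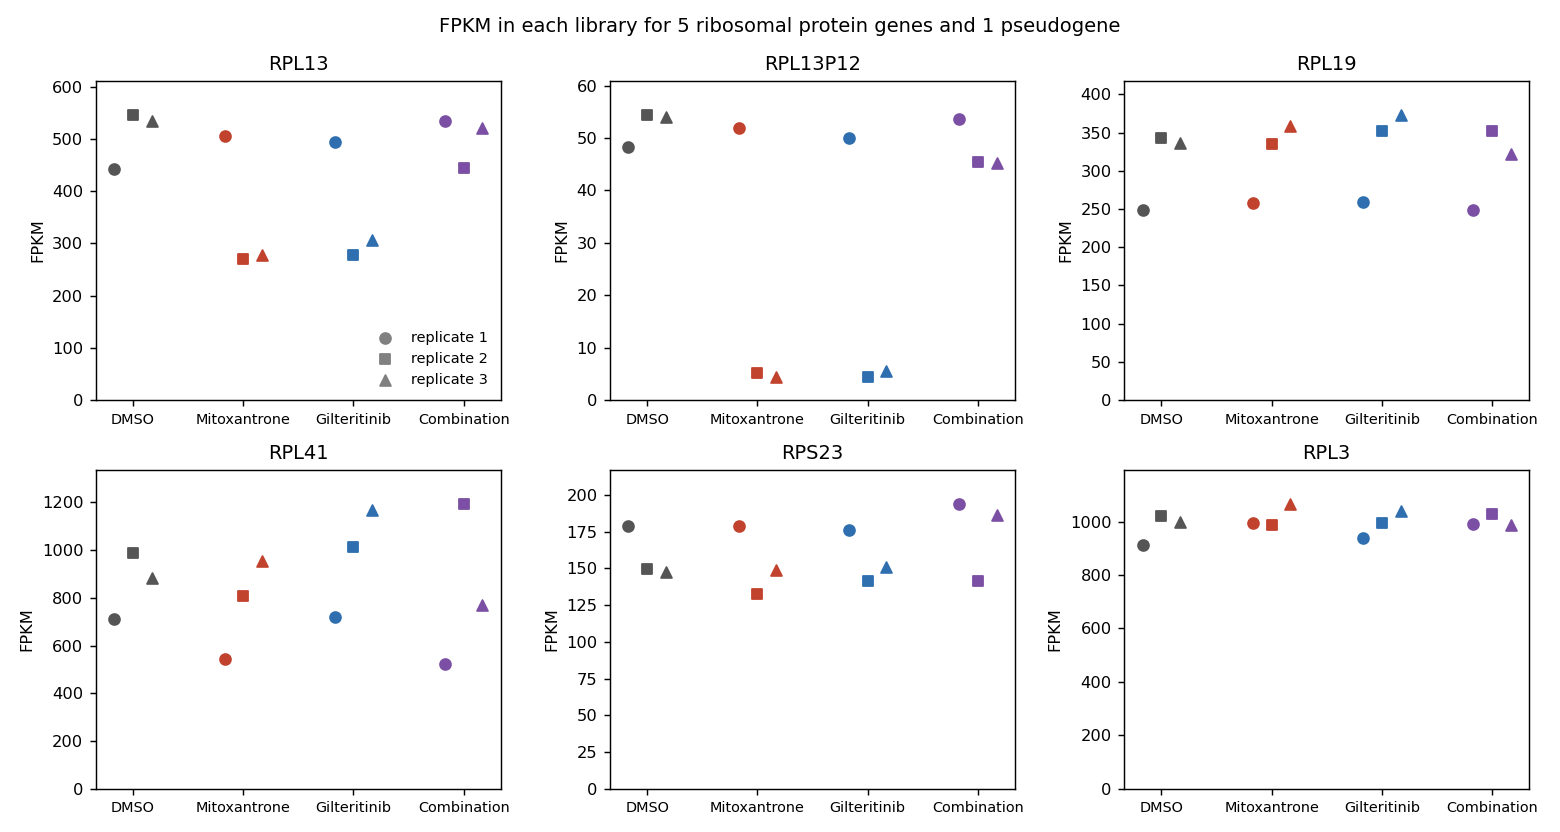
FPKM of RPL13, its pseudogene RPL13P12, RPL19, RPL41, RPS23 and RPL3 in each of the 12 libraries, on axes from 0, by group, with marker shapes for the replicate number. RPL13 and RPL13P12 are low in replicates 2 and 3 of Mitoxantrone and Gilteritinib, replicate 1 of each group is low for RPL19 and RPL41 and high for RPS23, and RPL3, a gene not called, stays between 913 and 1066 FPKM.

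Related genes also differed between replicate numbers. FAU (-0.22), whose product is a ribosomal protein fused to a ubiquitin-like domain, RPL36AL (-0.39), RPL26L1 (-0.30), RPL22L1 (-0.27) and RPL7L1 (-0.24) were lower in replicate 1, and RPS27L was higher (0.28, adjusted p = 0.0164 from limma). Of the 9 related genes that passed the filter 6 were lower and 1 was higher, with 6 lower and 3 higher of 22 other TOP mRNA genes and 13 lower and 8 higher of 72 mitochondrial ribosomal protein genes. As shares, 66.7%, 27.3% and 18.1% of these lists were lower and 11.1%, 13.6% and 11.1% higher, beside 12.7% and 26.9% of all genes. Of the 388 pseudogenes of the family 96 were higher (24.7%) and 20 lower (5.15%). Of the 17 genes of translation control 6 were lower (35.3%) and 4 higher (23.5%), with MYC at -0.57 (adjusted p = 0.000305), EIF4EBP1 at -0.53 (0.00282) and LARP1 at -0.43 (0.00259), all named after their values were seen. MDM2 (1.04, adjusted p = 0.000808) and CDKN1A (1.03, adjusted p = 0.00339) were higher. Among the myeloid markers LYZ was higher (0.91) and CSF1R lower (-0.79), and the part of these movements in the ribosomal protein values was not tested.

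Members of the family varied together mainly among the short genes. Over the 12 libraries the median Pearson's r between 2 members was 0.34, and it was 0.75 within the 24 genes under 400 nt, 0.26 within the 28 from 400 to under 600 nt, 0.18 within the 22 longer ones and 0.09 between the shortest and longest class. RPL41 was nearest to RPL37A (r = 0.978), RPS12 (0.969) and RPS16 (0.963), and RPS26 nearest to RPL37A (0.98), RPL38 (0.968) and RPL41 (0.958). RPLP0 was nearest to RPSA (0.947), RPL15 (0.91) and RPS3A (0.9), and RPL5 to RPS7 (0.956), RPL9 (0.93) and RPSA (0.919). RPL11 was nearest to RPL14 (0.942), RPL12 (0.9405) and RPL36 (0.927) and not to RPL5. The 12 libraries share replicate numbers and groups, so the values describe likeness in these libraries. The coefficient of variation had a median of 8.985% in the family and 10.04% over the 413 protein-coding genes with a mean of at least 100 FPKM.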

How the data were processed

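Gene-level FPKM values were deposited by the authors as 1 table of 12 RNA-seq libraries, with 43876 human Ensembl genes (41461 with a symbol). The labels give extraction with a miRNeasy kit (the study's text gives TRIzol), Geo-seq amplification and TruePrep V2 libraries; the submitters' processing notes name Bowtie 0.12.9, Cufflinks 2.1.1, HTSeq, DESeq2 and the mouse build mm10, while the gene IDs are human, and the roles of these tools are not given in the sources used here. Lengths came from GENCODE release 29. FPKM steps at low genes gave the fragments per library: 31725000 to 41325000, with 77.3% to 78.3% of the values checked whole within 0.05 of a fragment. Normalization by a library total means that abundant RNAs change every other FPKM.

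Groups and replicate numbers came from the sample titles. Genes that reached an FPKM of 1 in 3 or more libraries were fitted on log2(FPKM + 1) with limma 3.58.1 in R 4.3.3 (mean-variance trend, all 12 libraries, two-sided, Benjamini-Hochberg over 18574 genes, threshold 0.05). The fit was tested on simulated data. Same-numbered libraries deviated together in all 18 pairs. The split of replicate 1 can give this by itself, so a pairing by the numbers 2 and 3 is not shown. The replicate block was an alternative beside other pseudocounts, filters, scalings, sample sets and leaving out each library. A batch term for replicate 1, protein-coding genes only and GC correction were added after seeing the data. Genes were named by role, by the 5 highest and 5 lowest means, by the 3 smallest p in each fit and by the 2 smallest p of each related list in Mitoxantrone and Combination against DMSO. Some genes that this rule or the lists name are not reported here. The members and lists were chosen with earlier results of these data known. Likeness is Pearson's r of log2(FPKM + 1) over 12 libraries, with no test. Promoter windows are from RefSeq, GRCh38.p14.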

Additional observations from a re-analysis of the deposited data

How the results depend on the processing

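No drug comparison called a ribosomal protein gene under the other pseudocount, filters and scalings, without the mean-variance trend, with protein-coding genes only, with GC correction, with a batch term for replicate 1 or with any library left out (0 calls at the lowest and highest), and the replicate block left 0 calls in each of the 6. The exception was the fit of replicates 2 and 3 only, which holds 2 libraries per group and was run with the split of replicate 1 known. It gave 1 call, RPL13, in each of Mitoxantrone minus DMSO, Gilteritinib minus DMSO and Combination minus Mitoxantrone, and 0 in the other 3. Of all genes, 6.41%, 0.614% and 6.13% were called in the first 3 of these comparisons. At gene level, 483 of the values of the genes with the smallest p in the drug fits stayed on their side of the threshold and 3, those of RPL13, crossed it. The replicate 1 difference gave 30 to 39 calls without 1 library, and 747 values of the 40 genes stayed called while 92 were lost; no direction reversed. The share of the family moved with its denominator: over protein-coding genes it was 10.55% in DMSO, 10.87% in Mitoxantrone, 10.9% in Gilteritinib and 10.81% in the combination, without RN7SL1, RN7SL2, RN7SK and RMRP 8.915%, 9.099%, 9.276% and 9.169%, and in recovered fragments 9.757%, 9.859%, 10.14% and 9.963%. Replicate 1 overlapped the other libraries over protein-coding genes and in fragments (9.12% to 9.9% against 9.72% to 10.5%). Depth limits RPS18 and RPS25. The values of RPS25 rest on 2 to 12 fragments, and those of RPS18 on a small number that the recovery did not give exactly.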
